A study of Mus musculus with 16 samples.

Results

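The genes described here carry glucose into the cell and through the first steps of glycolysis: the glucose transporters Slc2a1 (GLUT1) and Slc2a3 (GLUT3), the hexokinases Hk1 and Hk2, the phosphofructokinases Pfkl and Pfkp, the isomerases Gpi1 and Tpi1, and Pdk1, the kinase that restrains pyruvate dehydrogenase. They were chosen by name, and a gene entered where a row of the array table was annotated with its symbol. This held for 7 of the 9 genes, among 16475 genes on the arrays. Hk2 and Gpi1 were not analysed here.

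The study asked whether subsets of CD4+ T cells differ in which mRNAs they translate. The lymph nodes and spleens of female GFP-Foxp3 knock-in reporter mice on C57BL/6, between 6 and 12 weeks old, supplied CD4+ T cells, which were sorted to a purity above 97% into GFP+ cells, which carry the regulatory T cell factor Foxp3 (TFoxp3+), and GFP- cells (TFoxp3-). Both subsets were taken directly ex vivo or after 36 h of activation. Activation was in wells coated with anti-CD3 and anti-CD28 (each at 5 µg/ml) in the presence of hIL-2 (100 U/ml). To keep mRNA and ribosomes together, cycloheximide was given at 100 µg/ml. Ex vivo cells met the drug in every buffer and medium, whereas activated cells received it only as their culture ended. Exposure to the drug thus differed with activation, and its part was not tested. From each subset and state, mRNA engaged by at least 3 ribosomes (polysome-associated) and total cytosolic mRNA were measured on Affymetrix arrays. The 8 groups were activated TFoxp3+, activated TFoxp3-, ex vivo TFoxp3+ and ex vivo TFoxp3- cells, each as polysome-associated and as cytosolic mRNA, with 2 arrays per group and 16 arrays in all. The paper's methods call the 2 arrays biological duplicates, and each ex vivo array holds RNA pooled from 2 experiments.

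Values are log2 intensities, on which a difference of 1 is a doubling, and they are relative to the RNA loaded, so that in these sorted populations fewer expressing cells and less mRNA per cell cannot be told apart. Foxp3 itself measured 9.42 to 10.76 on the TFoxp3+ arrays and 3.74 to 6.85 on the TFoxp3- arrays. All 9 measured CD4 T cell markers lay above the array median in every group, and of the markers of other cells at least 3 of 5 for B cells, 6 of 9 for myeloid cells, 3 of 5 for CD8 T and NK cells, 3 of 3 for erythroid cells and 5 of 7 for stromal and endothelial cells lay below it. The spacing between the 3' and 5' control probe sets of actin, a reading of RNA and amplification quality, was -0.588 to -0.261 in activated TFoxp3+, -0.362 to -0.202 in activated TFoxp3-, 4.16 to 4.64 in ex vivo TFoxp3+ and 0.82 to 1.38 in ex vivo TFoxp3- arrays. The same spacing for Gapdh was 1.04 to 1.32 in activated arrays of both subsets, 3.51 to 4.12 in ex vivo TFoxp3+ and 2.26 to 3.37 in ex vivo TFoxp3- arrays. Both spacings therefore moved with activation in both subsets and with the subset ex vivo, where that of Gapdh differed less than that of actin. The correlation between the 2 arrays of a group was 0.887 to 0.888 in activated TFoxp3+ cells, 0.941 to 0.945 in activated TFoxp3- cells, 0.980 to 0.986 in ex vivo TFoxp3+ cells and 0.989 to 0.992 in ex vivo TFoxp3- cells. The scan names fall into 3 series, 1 for ex vivo cells and 1 for each activated subset, so activation and the comparison of activated subsets cannot be told apart from the series, while the ex vivo subset comparison and all comparisons of mRNA fractions lie within a series.

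Resting T cells take up little glucose and burn it mainly in mitochondria. On activation through the T cell receptor and CD28 they place glucose transporters on the surface and turn to aerobic glycolysis, in which much of the glucose leaves the cell as lactate. Hexokinase traps glucose as glucose 6-phosphate, phosphofructokinase commits it to glycolysis, triose phosphate isomerase interconverts the products of aldolase, and pyruvate dehydrogenase kinase keeps pyruvate from the mitochondria. The transcription factors Hif1a and Myc are known to drive these genes, Hif1a through a short core in the hypoxia response element and Myc through the E-box.

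The promoters of the genes whose mRNA rose with activation in every comparison (Slc2a1, Hk1 and Pfkp) and of Pdk1, which did not, are shown because these genes moved apart. Each sequence is the 250 bases before the annotated start, 5' to 3' on the gene's strand, from RefSeq for GRCm38.p6, with every match on either strand in capitals, the motifs being ACGTG and GCGTG, which are hypoxia response cores, and the E-box. For Hk1 and Pdk1, which have more than 1 annotated start, the start with a match is printed.
Slc2a1, chr4:119108495-119108744, plus strand: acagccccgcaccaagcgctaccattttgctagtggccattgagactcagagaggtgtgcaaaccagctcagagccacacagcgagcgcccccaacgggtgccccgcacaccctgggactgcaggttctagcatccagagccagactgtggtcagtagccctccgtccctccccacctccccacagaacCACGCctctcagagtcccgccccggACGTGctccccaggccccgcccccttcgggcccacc
Hk1, chr10:62340422-62340671, minus strand: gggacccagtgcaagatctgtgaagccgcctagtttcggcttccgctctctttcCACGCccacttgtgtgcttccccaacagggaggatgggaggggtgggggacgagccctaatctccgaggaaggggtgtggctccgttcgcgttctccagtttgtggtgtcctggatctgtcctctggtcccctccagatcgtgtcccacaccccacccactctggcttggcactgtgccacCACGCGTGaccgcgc
Pfkp, chr13:6648772-6649021, minus strand: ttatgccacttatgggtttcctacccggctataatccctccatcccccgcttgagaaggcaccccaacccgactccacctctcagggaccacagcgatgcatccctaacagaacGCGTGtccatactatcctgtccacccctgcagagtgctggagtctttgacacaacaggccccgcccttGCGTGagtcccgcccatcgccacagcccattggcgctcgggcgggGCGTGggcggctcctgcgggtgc
Pdk1, chr2:71872974-71873223, plus strand: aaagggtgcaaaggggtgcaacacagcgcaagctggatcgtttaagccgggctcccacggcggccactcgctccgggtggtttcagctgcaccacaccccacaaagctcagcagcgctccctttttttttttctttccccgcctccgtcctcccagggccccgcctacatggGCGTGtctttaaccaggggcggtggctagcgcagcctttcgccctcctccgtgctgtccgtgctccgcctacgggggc

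The Slc2a1 window held ACGTG with its first base at position -36 from the start, and GCGTG on the other strand at -61. Hk1 held GCGTG at -12 on the printed strand and at -15 and -196 on the other, where the matches at -12 and -15 overlap. Pfkp held it 3 times, at -136, -68 and -23, and Pdk1 once, at -78. Of the windows not printed, Pfkl held GCGTG once, at -99, while Tpi1 and the other starts of Hk1 and Pdk1 held none of the motifs. ACGTG, which is part of the E-box CACGTG, was found in 16.6% of all 32851 RefSeq promoter windows, GCGTG in 28.2%, either of them in 38.6% and CACGTG in 6.02%. No member window held CACGTG. Matches were thus present before the printed start of Pdk1 as well as before those of the genes that rose. For Hk1 and Pdk1 that start was picked for its match, whereas the percentages count every window singly. Binding was not measured. The promoter of Slc2a3 was not analysed here.

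**Figure D1:**
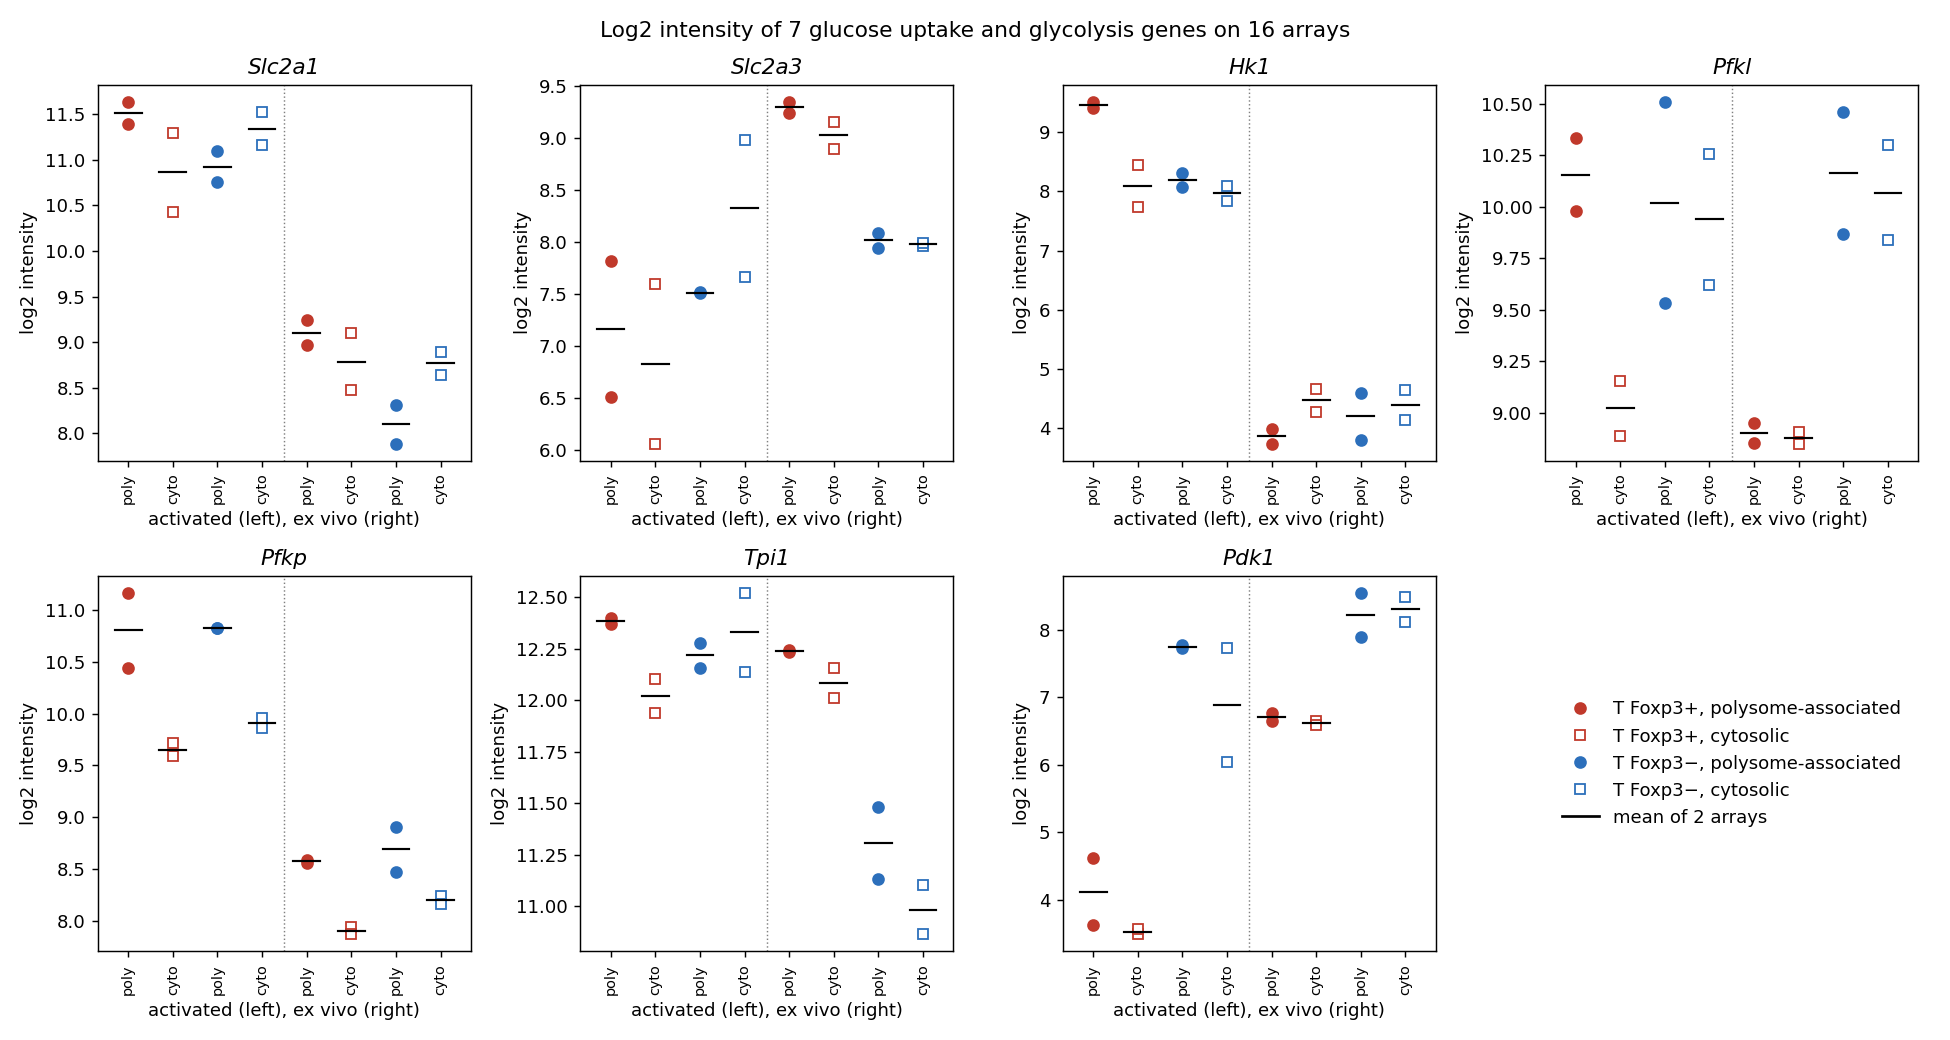
Log2 intensity of each of the 7 genes (vertical axes, which differ between panels) on the 16 arrays, with activated cells left of the dotted line and ex vivo cells right of it. Each point is 1 array and each black line the mean of 2 arrays. Hk1 sits between 7.74 and 9.51 in activated cells and between 3.75 and 4.67 ex vivo, while Pdk1 is lowest in activated TFoxp3+ cells (3.48 to 4.61).

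Activation changed most of these genes, and the transporters did not move together. Slc2a1, Hk1 and Pfkp rose in both subsets and in both mRNA fractions, Slc2a3 and Pdk1 fell in TFoxp3+ cells, and Tpi1 rose in TFoxp3- cells. Of the 7 genes, 6 were called in TFoxp3+ polysome-associated mRNA, where 29.3% of all 16475 genes were called, and 5 in TFoxp3+ cytosolic mRNA (31.4%). In TFoxp3- cells 4 were called in polysome-associated mRNA (30.6%) and 5 in cytosolic mRNA (26.1%). A call is an adjusted p under 0.05 from limma with Benjamini-Hochberg adjustment over all genes. The median difference of the 7 genes was 1.25, 0.14, 0.91 and 1.35 in the same order, against 0.09, 0.13, 0.02 and 0.11 over all genes. The calls ran both ways: 4 of 6, 3 of 5, 4 of 4 and 4 of 5 were rises. Markers of other cells moved with activation too. In the same order, 2, 1, 3 and 2 of 5 B cell markers were lower and 0 higher, 2, 3, 1 and 0 of 9 myeloid markers were higher and 2, 1, 2 and 2 lower, 1, 3, 0 and 2 of 7 stromal and endothelial markers were higher and 0, 0, 1 and 0 lower, 1, 1, 0 and 1 of 5 CD8 T and NK cell markers were higher and 0, 0, 0 and 1 lower, and no erythroid marker was called. The mean level of each list lay between 3.55 and 5.40 on all arrays, and their part was not tested. The actin and Gapdh spacings moved with activation as given above, and their part was not tested either. Scan series and activation cannot be told apart.

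Slc2a1 encodes the main glucose transporter of activated T cells. In TFoxp3+ cells it measured 11.39 and 11.63 after activation, against 8.97 and 9.25 ex vivo, in polysome-associated mRNA, and 11.29 and 10.43 against 8.48 and 9.10 in cytosolic mRNA. In TFoxp3- cells it measured 10.75 and 11.10 after activation, against 7.89 and 8.31 ex vivo, in polysome-associated mRNA, and 11.52 and 11.16 against 8.90 and 8.64 in cytosolic mRNA. All 8 activated arrays thus lay above all 8 ex vivo arrays. The differences were 2.40 ± 0.33 and 2.07 ± 0.33 in TFoxp3+ cells and 2.82 ± 0.33 and 2.57 ± 0.33 in TFoxp3- cells (± SE), or 5.29-, 4.20-, 7.08- and 5.94-fold (limma, adjusted p = 0.000417, 0.00103, 8.91e-05 and 0.000264). In the order of group means, activated TFoxp3+ polysome-associated came first and overlapped with activated TFoxp3- cytosolic, next came activated TFoxp3- polysome-associated and TFoxp3+ cytosolic, which overlapped too, and ex vivo TFoxp3- polysome-associated came last.

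Slc2a3 encodes a transporter of higher glucose affinity, best known from neurons. It went the other way in TFoxp3+ cells. Polysome-associated Slc2a3 measured 7.82 and 6.51 in activated TFoxp3+ cells, against 9.24 and 9.34 ex vivo. Cytosolic Slc2a3 measured 7.59 and 6.06 in activated TFoxp3+ cells, against 8.89 and 9.15 ex vivo. The differences of -2.13 ± 0.54 and -2.20 ± 0.54 are 4.37- and 4.58-fold decreases (limma, adjusted p = 0.0139 and 0.0116), and the groups did not overlap, although the activated arrays of each group lay far apart.

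In TFoxp3- cells Slc2a3 was not called: it measured 7.51 and 7.52 after activation, against 8.09 and 7.94 ex vivo, in polysome-associated mRNA, and 7.67 and 8.98 against 7.96 and 7.99 in cytosolic mRNA. The pooled SD of Slc2a3 between duplicate arrays was 0.85 in activated and 0.11 in ex vivo cells, the largest such difference among the 7 genes. Its highest group mean was that of ex vivo TFoxp3+ polysome-associated and its lowest that of activated TFoxp3+ cytosolic mRNA, and only 2 of the 7 steps between neighbouring means were without overlap. The cytosolic fall was -1.43 without array 15 (activated TFoxp3+, cytosolic), with limma's adjusted p at 0.0815, and 0.0718 without array 5 (ex vivo TFoxp3+, cytosolic). The polysome-associated fall lost its call without array 16 (activated TFoxp3+, polysome-associated; -1.47, adjusted p = 0.0911), array 2 (0.0616) or array 6 (0.0714), both ex vivo TFoxp3+ polysome-associated arrays. Both falls also missed the threshold when only the groups compared were fitted (adjusted p = 0.0655 in cytosolic and 0.0627 in polysome-associated mRNA), and after cyclic loess (0.0721 and 0.0521).

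Hk1 encodes the hexokinase that sits on the mitochondrial outer membrane and catalyses the first step of glycolysis. It showed the widest span of the 7 genes, 5.59 between its highest and its lowest group mean. In polysome-associated mRNA of TFoxp3+ cells it measured 9.51 and 9.40 after activation, against 3.75 and 3.99 ex vivo, and in cytosolic mRNA 7.74 and 8.44 against 4.67 and 4.28. In TFoxp3- cells it measured 8.31 and 8.07 after activation, against 3.81 and 4.60 ex vivo, in polysome-associated mRNA, and 8.10 and 7.84 against 4.66 and 4.15 in cytosolic mRNA. Every activated array thus stood well above every ex vivo array. The differences were 5.59 ± 0.32 and 3.61 ± 0.32 in TFoxp3+ cells and 3.99 ± 0.32 and 3.57 ± 0.32 in TFoxp3- cells (limma, adjusted p = 3.11e-06, 3.48e-05, 9.57e-06 and 3.61e-05). All 8 ex vivo values lay below the lowest array median of 4.845, a range in which log2 intensities flatten, so the size of these folds is uncertain while their direction held in every alternative run. The activated TFoxp3+ polysome-associated arrays stood above the next group with no overlap, the other activated groups overlapped with their neighbours in the order of means, and so did the ex vivo groups.

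The phosphofructokinases differed from each other. Pfkp, the platelet-type subunit of the enzyme that commits sugar to glycolysis, measured 10.44 and 11.17 in activated TFoxp3+ cells, against 8.56 and 8.59 ex vivo, in polysome-associated mRNA, and 9.71 and 9.59 against 7.93 and 7.87 in cytosolic mRNA. In TFoxp3- cells it measured 10.83 on both activated arrays, against 8.47 and 8.91 ex vivo, in polysome-associated mRNA, and 9.86 and 9.96 against 8.24 and 8.16 in cytosolic mRNA. Every activated array again lay above every ex vivo array. The rises were 2.23 ± 0.24 and 1.75 ± 0.24 in TFoxp3+ cells and 2.14 ± 0.24 and 1.71 ± 0.24 in TFoxp3- cells, or 4.70-, 3.37-, 4.41- and 3.27-fold (limma, adjusted p = 0.000115, 0.000514, 8.42e-05 and 0.000582). Pfkp also had the cleanest order of groups, with no overlap at 5 of 7 steps between neighbouring means.

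Pfkl, the liver-type subunit, was called in 1 of the 4 activation comparisons. It measured 9.98 and 10.33 in activated TFoxp3+ polysome-associated mRNA, against 8.95 and 8.86 ex vivo, a difference of 1.25 ± 0.35 (limma, adjusted p = 0.0212). In TFoxp3+ cytosolic mRNA it measured 8.89 and 9.16 after activation and 8.85 and 8.91 ex vivo. In TFoxp3- cells it measured 10.51 and 9.53 after activation, against 9.87 and 10.46 ex vivo, in polysome-associated mRNA, and 9.62 and 10.26 against 10.30 and 9.84 in cytosolic mRNA. The activated and ex vivo arrays of TFoxp3- cells thus overlapped in both fractions, and among the 8 groups in order of their means the only neighbours without overlap were activated TFoxp3- cytosolic and activated TFoxp3+ cytosolic. The TFoxp3+ call was lost without array 2 (adjusted p = 0.0802), array 6 (0.0999) or array 16 (0.0913), when only the groups compared were fitted (0.0508) and with array weights (0.0831).

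Tpi1 encodes triose phosphate isomerase and stood at the 99.5th percentile of mean intensity among all genes. In TFoxp3- cells it measured 12.16 and 12.28 after activation, against 11.13 and 11.48 ex vivo, in polysome-associated mRNA, and 12.14 and 12.52 against 11.10 and 10.86 in cytosolic mRNA. These rises of 0.91 ± 0.21 and 1.35 ± 0.21, or 1.88- and 2.54-fold, were called (limma, adjusted p = 0.00676 and 0.000921), and the first missed the threshold without array 4 (ex vivo TFoxp3-, polysome-associated; 0.0732). In TFoxp3+ cells Tpi1 measured 12.40 and 12.37 after activation, against 12.24 and 12.25 ex vivo, in polysome-associated mRNA, and 11.94 and 12.11 against 12.16 and 12.01 in cytosolic mRNA, with differences of 0.14 (95% interval -0.31 to 0.60) and -0.06 (-0.52 to 0.40). The test of the difference between subsets in cytosolic mRNA gave -1.41 ± 0.29 (limma, adjusted p = 0.0379), with 1 of the 7 genes called and 2.07% of all genes. It lost the call in 14 of 22 alternatives, among them the fit of only the groups compared (adjusted p = 0.0946), array weights (0.08), the filter on dim genes (0.0559) and cyclic loess (0.111), and over all 22 it ranged from -1.60 to -1.10. The ex vivo TFoxp3- groups were the lowest of the 8 in Tpi1 and stood below the rest with no overlap, while the other 6 groups overlapped with their neighbours. The actin spacing differed between the ex vivo subsets as given above, and its part in this result was not tested.

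Pdk1 encodes the kinase that phosphorylates pyruvate dehydrogenase and so diverts pyruvate towards lactate. In TFoxp3+ cells its falls were the largest among the 7 genes. In TFoxp3+ cells Pdk1 measured 3.62 and 4.61 after activation, against 6.77 and 6.65 ex vivo, in polysome-associated mRNA, and 3.48 and 3.56 against 6.66 and 6.59 in cytosolic mRNA. These falls of -2.59 ± 0.48 and -3.10 ± 0.48, or 6.03- and 8.57-fold, were called in every alternative run (limma, adjusted p = 0.00253 and 0.000925), and the activated values lay below the lowest array median of 4.845, so that their size is uncertain.

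In TFoxp3- cells Pdk1 measured 7.73 and 7.77 after activation, against 8.55 and 7.89 ex vivo, in polysome-associated mRNA, and 6.03 and 7.73 against 8.49 and 8.12 in cytosolic mRNA. The polysome-associated difference of -0.47 ± 0.48 was not called (adjusted p = 0.506). The cytosolic fall of -1.42 ± 0.48 just passed (limma, adjusted p = 0.0498). Its size was -0.58 without array 9 (activated TFoxp3-, cytosolic) and -2.27 without its duplicate, array 11, and 2 arrays cannot show which of them is off. The fall lost the call in 16 of 22 alternatives, 13 of them fits without 1 array. The falls of the subsets were not shown to differ, with a test of the difference of -1.68 ± 0.68 in cytosolic mRNA (limma, adjusted p = 0.259) and -2.12 ± 0.68 in polysome-associated mRNA (adjusted p = 0.136). Both passed without array 9 (-2.53, adjusted p = 0.0424, and -2.12, 0.0392), and the second also without array 11 (0.0392). In the order of its means Pdk1 ran from the ex vivo TFoxp3- groups through the activated TFoxp3- and the ex vivo TFoxp3+ groups to the activated TFoxp3+ groups, with no overlap at 4 of 7 steps.

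**Figure D2:**
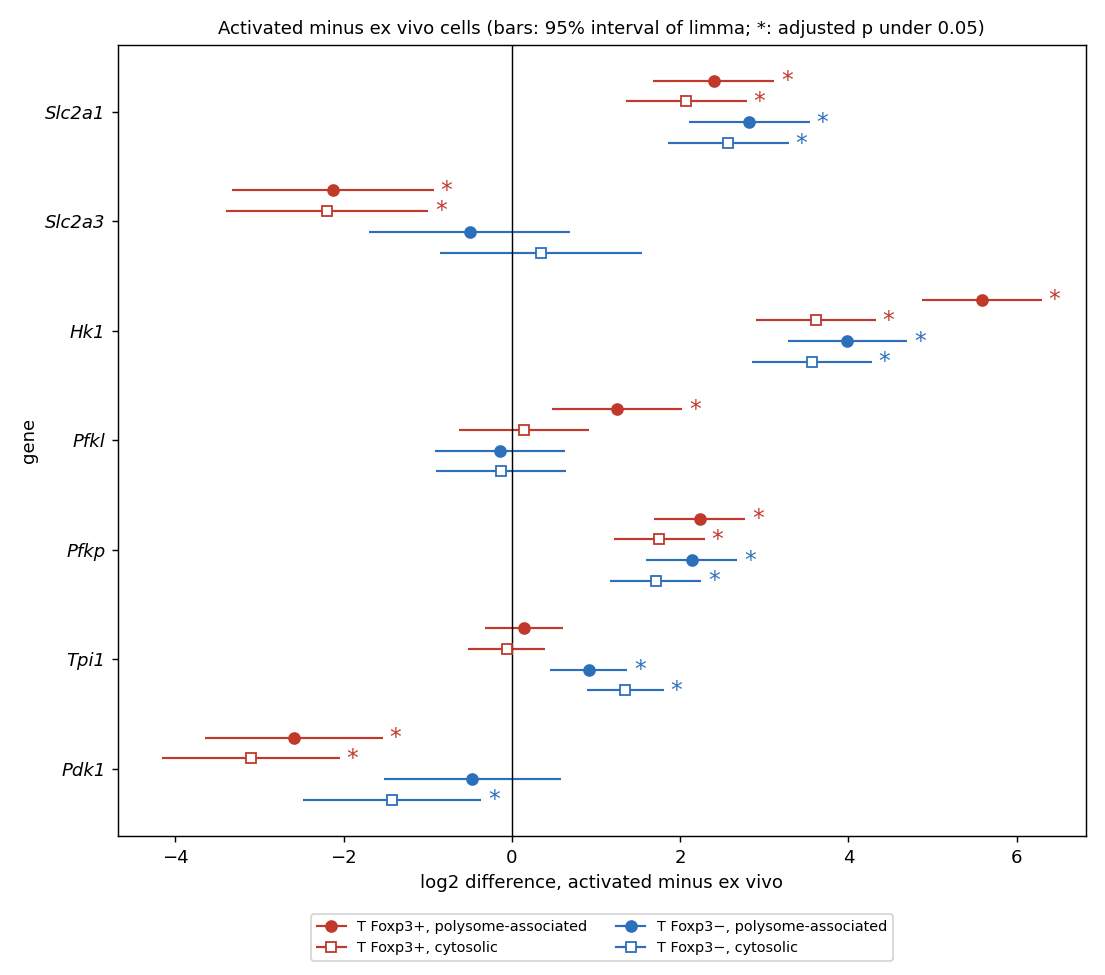
Log2 difference between activated and ex vivo cells for each gene (rows), with polysome-associated mRNA as filled circles, cytosolic mRNA as open squares, TFoxp3+ cells in red and TFoxp3- cells in blue. Bars are 95% intervals from limma and stars mark an adjusted p under 0.05. Slc2a1, Hk1 and Pfkp are starred in all 4 comparisons, and the Slc2a3 falls of -2.13 and -2.20 are starred in TFoxp3+ cells alone, although a difference between subsets was not called.

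Whether activation acted differently in the subsets was tested for all 7 genes. In polysome-associated mRNA none was called (2.58% of all genes; limma), with 4 at an unadjusted p under 0.05: Hk1 at 1.60 ± 0.46, Pfkl at 1.40 ± 0.50, Tpi1 at -0.77 ± 0.29 and Pdk1 at -2.12 ± 0.68, with adjusted p of 0.096, 0.18, 0.213 and 0.136. In cytosolic mRNA, besides Tpi1, Slc2a3 had the largest difference at -2.54 ± 0.77 (adjusted p = 0.125), which passed at -3.31 without array 13 (activated TFoxp3+, cytosolic; 0.0315). For Slc2a1 and Pfkp the intervals were -1.52 to 0.52 and -0.72 to 0.81 in cytosolic mRNA and -1.44 to 0.60 and -0.67 to 0.86 in polysome-associated mRNA. Each of these comparisons includes the ex vivo subsets, whose actin spacing differed as given above, and its part was not tested.

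Activated TFoxp3+ cells were then compared with activated TFoxp3- cells, where Pdk1 stood out. Pdk1 was lower in TFoxp3+ cells by -3.64 ± 0.48 in polysome-associated mRNA (12.4-fold) and by -3.36 ± 0.48 in cytosolic mRNA (10.3-fold), with no overlap between arrays and a call in every alternative (limma, adjusted p = 0.00105 and 0.00218). The activated TFoxp3+ values of Pdk1 lay below the lowest array median of 4.845, so that the size of these differences is uncertain. Hk1 was higher in polysome-associated mRNA, with 9.51 and 9.40 in TFoxp3+ cells against 8.31 and 8.07 in TFoxp3- cells, a difference of 1.26 ± 0.32 (adjusted p = 0.0254). Here the threshold is an adjusted p under 0.15. With these genes, 2 of 7 were called in polysome-associated mRNA, where 32.4% of all genes were. In cytosolic mRNA 3 of 7 were called (26% of all genes), all lower in TFoxp3+ cells, namely Pdk1, Slc2a3 by -1.497 ± 0.54 (adjusted p = 0.099) and Pfkl by -0.92 ± 0.35 (0.115). The median difference of the 7 genes was 0.14 and -0.48, against 0.20 and 0.13 over all genes. Beside these genes, 3 and 1 of 7 stromal and endothelial markers, 1 and 2 of 9 myeloid, 1 and 1 of 5 B cell, 1 and 1 of 5 CD8 T and NK cell and 1 and 0 of 3 erythroid markers were higher in activated TFoxp3+ cells in polysome-associated and in cytosolic mRNA, and none lower. Their part was not tested.

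The Hk1 difference was lost when only the groups compared were fitted (adjusted p = 0.161) and with array weights (0.249). Slc2a3 was at -0.84 without array 11, -0.73 without array 15, -0.99 after cyclic loess and -2.26 without array 13, and Pfkl was at -0.60 without array 11 and -0.42 after cyclic loess. Apart from the -2.26, these values missed the threshold. Of 22 alternatives, 5 ended the call of Slc2a3 and 8 that of Pfkl. Among them were the fit of only the groups compared (limma, adjusted p = 0.402 for Slc2a3 and 0.344 for Pfkl) and array weights (0.192 and 0.417). Slc2a1 did not pass in either fraction, at 0.58 (95% interval -0.14 to 1.30) in polysome-associated and -0.48 (-1.20 to 0.24) in cytosolic mRNA, and nor did Pfkp or Tpi1. Pfkp was closest to equal between the activated subsets, at -0.02 (-0.56 to 0.52) in polysome-associated mRNA.

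Ex vivo the subsets differed in Tpi1, and in Pfkl and Pdk1, which were also called lower in cytosolic mRNA of activated TFoxp3+ cells. Tpi1 was higher in TFoxp3+ cells, at 12.24 and 12.25 against 11.13 and 11.48 in TFoxp3- cells in polysome-associated mRNA, and at 12.16 and 12.01 against 11.10 and 10.86 in cytosolic mRNA. Pfkl was lower, at 8.95 and 8.86 against 9.87 and 10.46 in polysome-associated mRNA, and at 8.85 and 8.91 against 10.30 and 9.84 in cytosolic mRNA. Pdk1 was lower too, at 6.66 and 6.59 in TFoxp3+ cells, against 8.49 and 8.12 in TFoxp3- cells, in cytosolic mRNA. None of these pairs of groups overlapped. This held without a call too, for Slc2a3 in both fractions, cytosolic Pfkp, and polysome-associated Slc2a1 and Pdk1. The share of all genes without overlap was not computed. The differences were 0.93 ± 0.21 and 1.10 ± 0.21 for Tpi1 (limma, adjusted p = 0.057 and 0.0269), -1.26 ± 0.35 and -1.19 ± 0.35 for Pfkl (0.125 and 0.139), and -1.68 ± 0.48 for cytosolic Pdk1 (0.123). In all, 2 of 7 genes were called in polysome-associated mRNA (3.87% of all genes) and 3 of 7 in cytosolic mRNA (4.64%), with a median difference of -0.11 and 0.02 over the 7 genes and 0.09 and 0.10 over all genes.

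These ex vivo calls were not firm. Leaving out any single one of the 8 ex vivo arrays ended the calls of Pfkl and cytosolic Pdk1, and that of Tpi1 was lost without array 1, 3 or 7 in cytosolic mRNA (adjusted p = 0.228, 0.156 and 0.22) and without array 2, 4 or 6 in polysome-associated mRNA (0.259, 0.458 and 0.246). The cytosolic calls of Pfkl and Pdk1 were also lost with an intensity trend in the prior variance and after cyclic loess, which ended the polysome-associated call of Pfkl as well. Slc2a3 was at 1.28 ± 0.54 in polysome-associated and 1.05 ± 0.54 in cytosolic mRNA without a call (adjusted p = 0.367 and 0.49), and with a fit of only the 2 groups compared, in which the wide spread of the activated arrays does not enter, the adjusted p was 0.02 and 0.0127. Polysome-associated Slc2a1, at 1.005 ± 0.33, and Pdk1, at -1.51 ± 0.48, were likewise called in that fit (0.0594 and 0.0353) and not in the fit of 16 arrays (0.203 and 0.194). With it 5 and 4 of the 7 genes were called in polysome-associated and cytosolic mRNA, against 20.9% and 31.5% of all genes. The actin spacing of 4.16 to 4.64 in TFoxp3+ against 0.82 to 1.38 in TFoxp3- ex vivo arrays moved with every difference in this comparison, and its part was not tested.

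**Figure D3:**
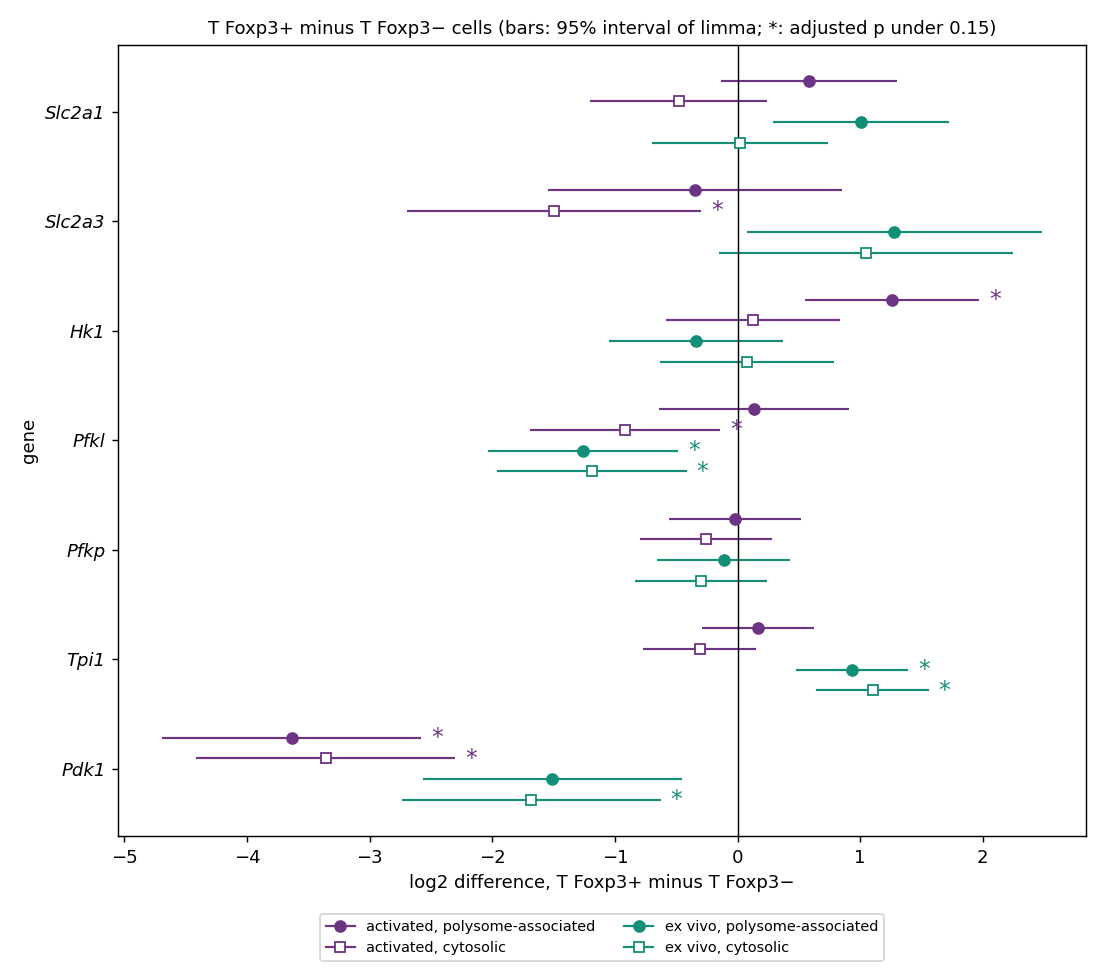
Log2 difference between TFoxp3+ and TFoxp3- cells for each gene (rows), with activated cells in purple, ex vivo cells in green, polysome-associated mRNA as filled circles and cytosolic mRNA as open squares. Bars are 95% intervals from limma and stars mark an adjusted p under 0.15. Pdk1 lies furthest to the left in activated cells, at -3.64 and -3.36, and Tpi1 is starred to the right ex vivo, at 0.93 and 1.10. The activated TFoxp3+ values of Pdk1 lay below the lowest array median, so that the size of its differences there is uncertain.

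Polysome-associated minus cytosolic values were compared within each cell population. They give the level of an mRNA on polysomes relative to other mRNAs, and not its share on them. In activated TFoxp3+ cells Hk1 was higher on polysomes, at 9.51 and 9.40 against 7.74 and 8.44 in the cytosol, and so was Pfkp, at 10.44 and 11.17 against 9.71 and 9.59. Neither pair of groups overlapped, which held for Slc2a1, Pfkl, Tpi1 and Pdk1 without a call too. The share of all genes without overlap was not computed. The differences of Hk1 and Pfkp were 1.36 ± 0.32 and 1.15 ± 0.24 (limma, adjusted p = 0.0392 and 0.0241). This made 2 of 7 genes called at a threshold of 0.05, against 4.66% of all genes. Pfkl had a difference of like size, 1.13 ± 0.35, without a call (adjusted p = 0.0955). Both calls were lost when only the groups compared were fitted (0.577 for Hk1 and 0.613 for Pfkp) and with array weights (0.58 and 0.336), Hk1 also with an intensity trend (0.0618) and in 9 of 16 fits without 1 array, at 1.01 to 1.42, and Pfkp without array 15 (0.0653) or 16 (0.0753).

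In activated TFoxp3- cells no gene of the set was called (3.88% of all genes; limma), with 1 at an unadjusted p under 0.05. This was Pfkp, at 10.83 on both polysome-associated arrays against 9.86 and 9.96 in the cytosol, a difference of 0.92 ± 0.24 (adjusted p = 0.0673). Its adjusted p was 0.0227 after cyclic loess and 0.021 without array 14 or 16, both activated TFoxp3+ arrays. Ex vivo none was called in TFoxp3+ cells (0.0364% of all genes), with 1 at an unadjusted p under 0.05, or in TFoxp3- cells (0.0607%), with 0. Pfkp was the gene with the unadjusted p ex vivo too, at 0.67 ± 0.24 in TFoxp3+ cells, and its difference was above 0 in all 4 populations. The median difference of the 7 genes was 0.65 in activated TFoxp3+, 0.08 in activated TFoxp3-, 0.16 in ex vivo TFoxp3+ and 0.04 in ex vivo TFoxp3- cells, against -0.05, -0.12, 0.00354 and 0.01 over all genes.

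**Figure D4:**
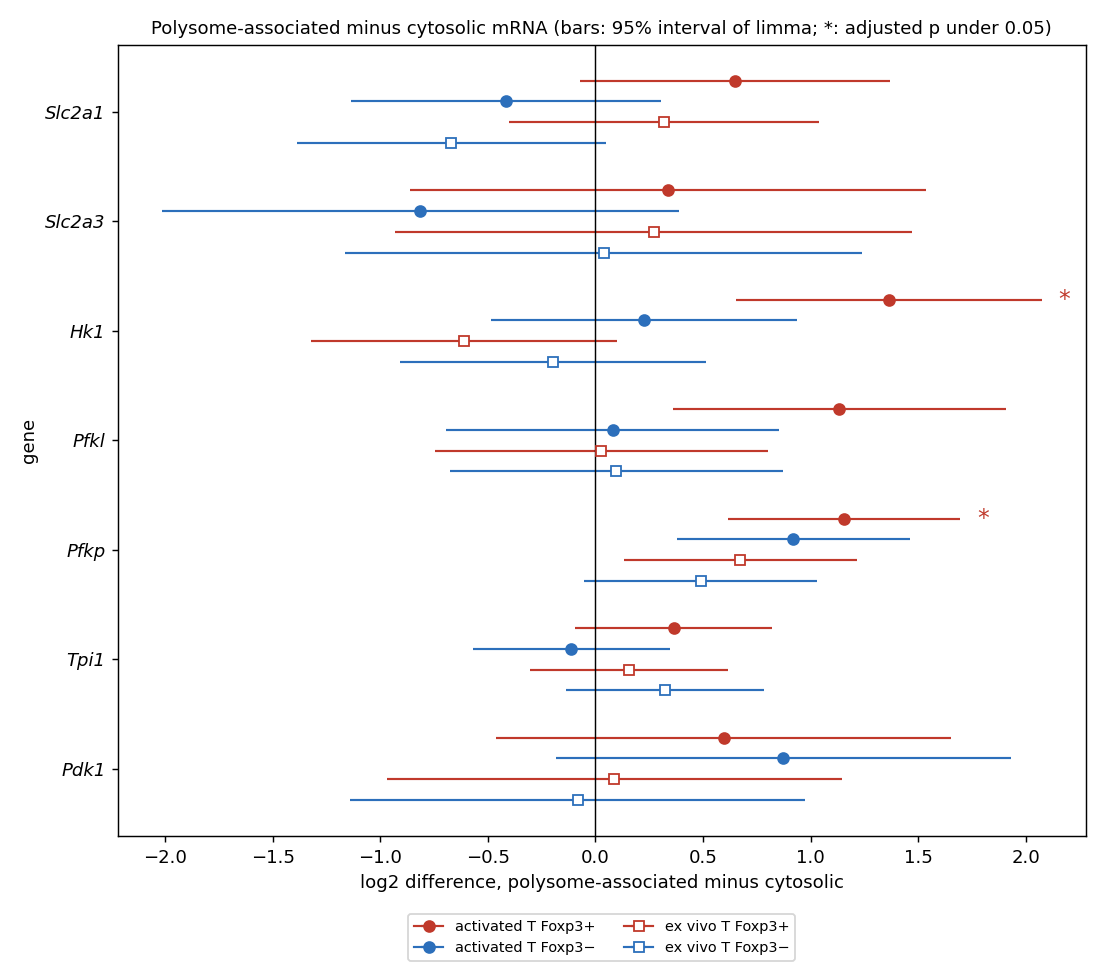
Log2 difference between polysome-associated and cytosolic mRNA for each gene (rows), with activated cells as filled circles, ex vivo cells as open squares, TFoxp3+ cells in red and TFoxp3- cells in blue. Bars are 95% intervals from limma and stars mark an adjusted p under 0.05. The stars are Hk1 at 1.36 and Pfkp at 1.15 in activated TFoxp3+ cells, and the 4 values of Pfkp lie between 0.49 and 1.15.

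Differential translation, the polysome-associated minus cytosolic difference in TFoxp3+ cells minus that in TFoxp3- cells, was not called for any of the 7 genes. In activated cells 7.48% of all genes were called at an adjusted p under 0.15, and ex vivo 0% at a threshold of 0.3. The count at an unadjusted p under 0.05 was 2 in activated cells, Hk1 at 1.14 ± 0.46 and Slc2a1 at 1.06 ± 0.46 (limma, adjusted p = 0.241 and 0.279), and 0 ex vivo. Slc2a3 had the largest difference in activated cells, at 1.15 ± 0.77 (adjusted p = 0.502), and Pdk1 alone lay below 0, at -0.28. The median difference of the 7 genes was 1.05 in activated cells and 0.17 ex vivo, against 0.0563 and -0.00586 over all genes. An analysis of covariance on the cytosolic values called none either. It put Slc2a1 at 0.40 and Pfkl at -0.88, against 1.06 and 1.05 here, so that the sign of Pfkl turned. It paired arrays by consecutive numbers and, unlike the study's method, set no limit on the slope between fractions. The turned sign therefore does not show what the study's method would give for Pfkl. Over all alternatives the values ran from 0.40 to 1.498 for Slc2a1, from 0.78 to 1.49 for Hk1 and from -0.88 to 1.54 for Pfkl. The highest of each passed the threshold, for Slc2a1 without array 13 (adjusted p = 0.0898), for Hk1 without array 15 (0.108) and for Pfkl without array 10 (activated TFoxp3-, polysome-associated; 0.13). No change with activation in the polysome-associated minus cytosolic difference was called for any of the 7 genes, in TFoxp3+ cells (0.279% of all genes called), with 2 at an unadjusted p under 0.05, or in TFoxp3- cells (0.158%), with 0. The largest was Hk1 in TFoxp3+ cells, at 1.97 ± 0.46 (95% interval 0.97 to 2.98, adjusted p = 0.107), and 2.32 without array 15 (0.0449).

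The levels of the 7 genes across the 8 groups fell into separate patterns. Slc2a1 and Hk1 had a Pearson correlation of 0.96 over the 8 group means, Hk1 and Pfkp of 0.925, and Slc2a1 and Pfkp of 0.886, while Slc2a3 ran opposite to Hk1 (-0.737) and to its fellow transporter Slc2a1 (-0.571). These values describe 8 means that share arrays and the normalization. Over the same means, the genes most like Slc2a1, out of 10912 whose means span at least 1, were Amh, Trim8 and Lhx5 (0.991 to 0.993). Those most like Hk1 were Gtf3c4, Huwe1 and Cyp20a1 (0.993 to 0.995), and those most like Pfkp were Hipk1, Cbfb and Lman1 (0.984 to 0.988). Slc2a3 was most like Gpr176 (0.997), Pdk1 most like Cnn3 (0.988), Pfkl most like Asb8 (0.952) and Tpi1 most like Kmt2d (0.944).

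Around the 7 genes, 47 of 59 other genes of glucose metabolism were measured: further transporters and glycolytic enzymes, the handling of lactate and pyruvate, regulators of glycolysis, and the pentose phosphate pathway. After activation, 10 of the 47 rose and 6 fell in TFoxp3+ polysome-associated mRNA, and 7 rose and 7 fell in TFoxp3+ cytosolic mRNA. In TFoxp3- cells 7 rose and 7 fell in polysome-associated mRNA, and 10 rose and 3 fell in cytosolic mRNA. Over all genes 14.7%, 16.9%, 14.1% and 13.6% rose in these comparisons and 14.6%, 14.4%, 16.4% and 12.5% fell. The median difference of the 47 was 0.12, -0.02, 0.09 and 0.11. The list as a whole thus went both ways.

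On the export side, the lactate transporter Slc16a3 (MCT4) rose by 5.48 ± 0.29 and 5.30 ± 0.29 in polysome-associated and cytosolic mRNA of TFoxp3+ cells and by 3.92 ± 0.29 and 5.22 ± 0.29 in TFoxp3- cells. Its ex vivo means of 4.11 to 4.52 all lay below the lowest array median of 4.845, so that the size of these rises is uncertain. Slc16a1 (MCT1) and Bsg, the chaperone both transporters need, rose in all 4 comparisons too, by 1.85 to 2.50 and by 2.63 to 3.10, with the ex vivo TFoxp3+ means of Slc16a1 (4.75 and 4.71) below that median too. Of the 13 measured genes of lactate and pyruvate handling, 5, 3, 4 and 5 rose and 0, 1, 0 and 0 fell in the order TFoxp3+ polysome-associated, TFoxp3+ cytosolic, TFoxp3- polysome-associated and TFoxp3- cytosolic.

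Among the regulators, Myc and Hif1a rose in all 4 comparisons, by 4.12 to 6.39 and by 1.99 to 3.15. Txnip, which draws glucose transporters off the membrane, and Pfkfb4, an enzyme that sets the level of the phosphofructokinase activator fructose 2,6-bisphosphate, fell in all 4, by differences of -5.61 to -1.80 and of -2.30 to -0.70. Of the 9 regulators, 2 rose in every comparison, and 3, 2, 3 and 2 fell in the order given above.

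Of the 6 measured pentose phosphate enzymes 0, 0, 1 and 0 rose and 2, 3, 2 and 1 fell, with a median of -1.24, -0.94, -0.26 and -0.01, and Taldo1 (transaldolase) fell in all 4 comparisons by differences of -3.87 to -2.47. Of the 9 other glycolytic enzymes, 2, 1, 0 and 2 rose and 1, 1, 1 and 0 fell. Aldoc, the brain-type aldolase, fell by -4.34 ± 0.66 and -3.24 ± 0.66 in polysome-associated mRNA of TFoxp3+ and of TFoxp3- cells, with a mean of 4.28 in the activated TFoxp3- group, below the lowest array median. Of the 10 other glucose transporters, 1, 1, 0 and 1 rose and 0, 0, 1 and 0 fell, among them Slc2a6 in TFoxp3- cytosolic mRNA, at 1.40 ± 0.38 (limma, adjusted p = 0.0209).

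**Figure D5:**
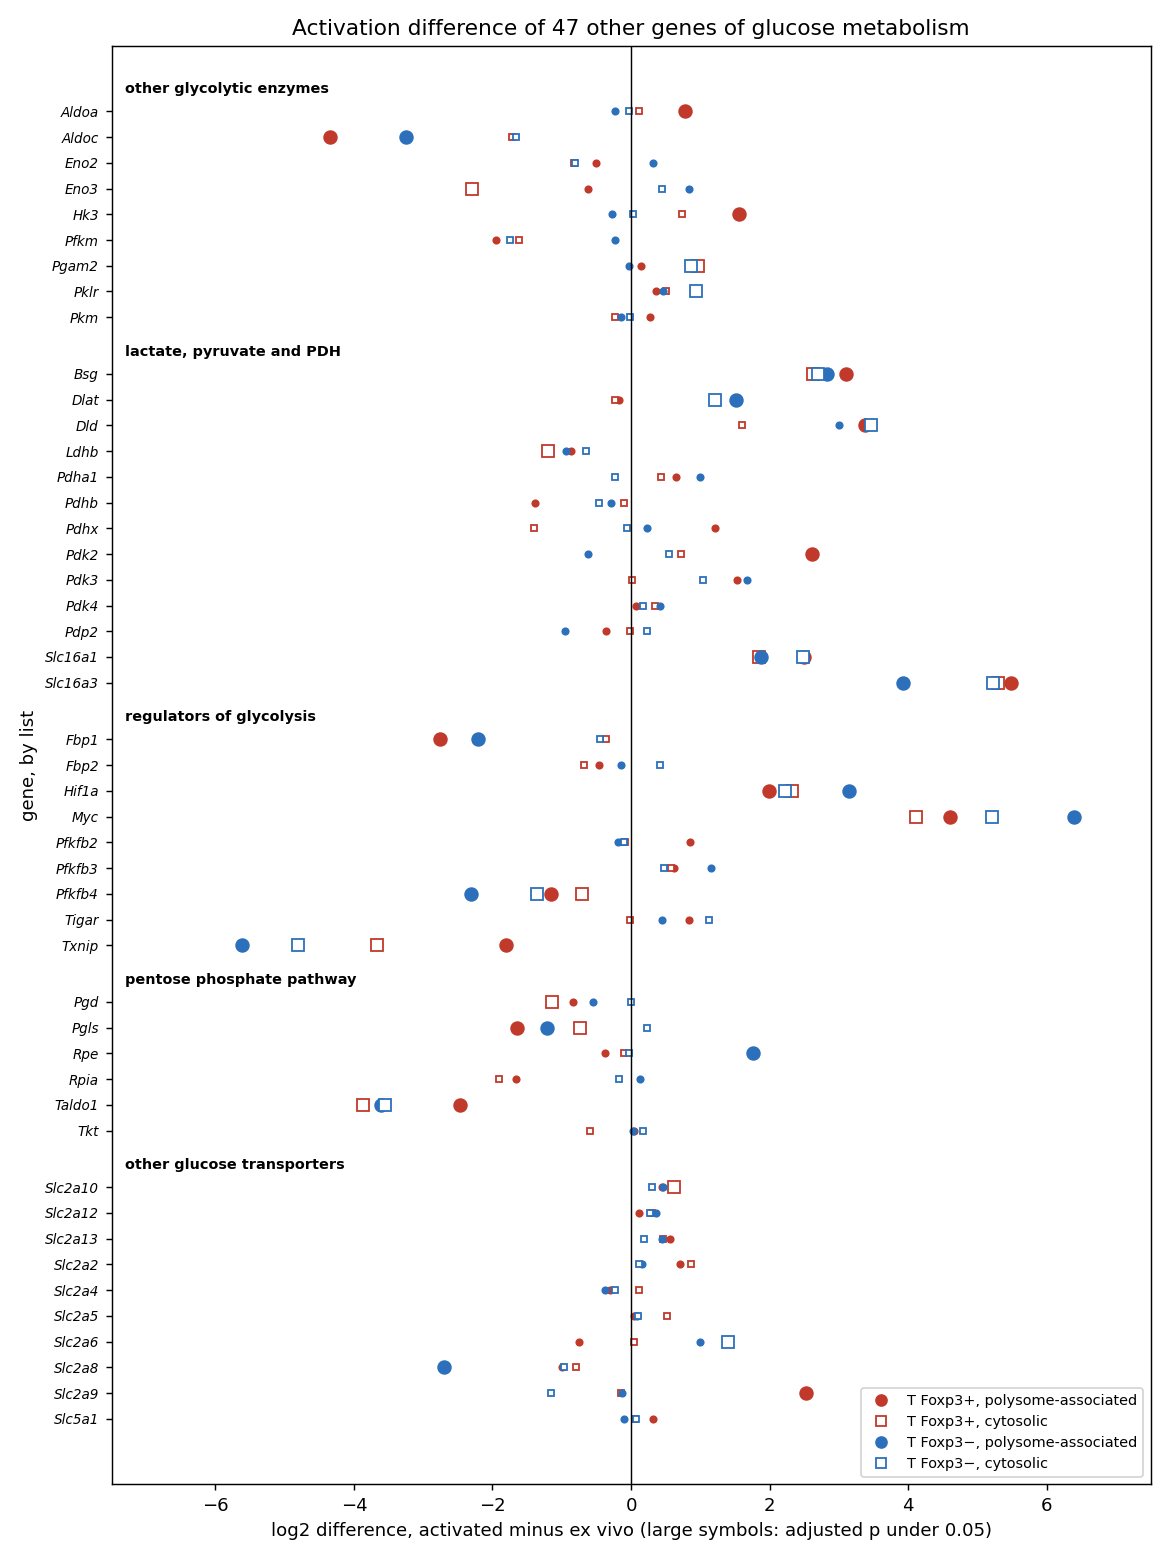
Log2 difference between activated and ex vivo cells for the 47 other measured genes of glucose metabolism (rows, grouped by list), with polysome-associated mRNA as filled circles, cytosolic mRNA as open squares, TFoxp3+ cells in red and TFoxp3- cells in blue. Large symbols have an adjusted p under 0.05 in limma. Slc16a3 (3.92 to 5.48) and Myc (4.12 to 6.39) lie furthest to the right, and Txnip (-5.61 to -1.80) and Taldo1 (-3.87 to -2.47) far to the left.

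Between the subsets, the 47 genes differed as follows. In activated cells 6 were higher and 7 lower in TFoxp3+ cells in polysome-associated mRNA (18.7% and 13.7% of all genes), and 2 higher and 8 lower in cytosolic mRNA (13.8% and 12.2%). Among them were Myc, lower by -1.05 ± 0.37 and -1.53 ± 0.37, and Slc16a3, higher on polysomes by 1.81 ± 0.29. Ex vivo 1 was higher and 1 lower in polysome-associated mRNA (1.62% and 2.25% of all genes), and 3 higher and 1 lower in cytosolic mRNA (2.06% and 2.58%). Eno3, the muscle-type enolase, was higher in ex vivo TFoxp3+ cells by 2.09 ± 0.37 and 2.52 ± 0.37 (limma, adjusted p = 0.0217 and 0.00834), the same direction as Tpi1, while Aldoa, the aldolase found in most cells, was lower on polysomes by -1.20 ± 0.19 (adjusted p = 0.0121). These ex vivo counts were 17 and 18 in a fit of only the groups compared, where 20.9% and 31.5% of all genes were called, against 2 and 4 here, and the actin spacing moved with them as it did with the members.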

How the data were processed

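The authors hybridised amplified RNA to Affymetrix arrays and summarised them with rma on Entrez-gene probe sets, and the deposited values are log2 intensities. All 16 arrays were used. The 64 control probe sets were left out and 16475 genes tested, of which 15780 had a symbol. A linear model of the 8 groups was fitted with limma 3.58.1 in R 4.3.3 and tested on simulated data, with Benjamini-Hochberg adjustment over all genes for each of 18 comparisons. Thresholds were 0.05, 0.15 for subsets and activated translation, and 0.3 for translation ex vivo. Tables and plots used Python 3.11.15, pandas 2.3.3 and matplotlib 3.10.9. Alternatives were array weights, a fit restricted to the groups being compared, a prior variance with an intensity trend, only genes above the median mean, median centring, cyclic loess, each array left out and, for translation, an analysis of covariance with arrays paired by consecutive numbers. Pairing the fractions by these numbers was added after seeing the data. The members and lists were chosen with earlier results of these data known. Besides the members, at most 4 called genes per list and comparison were named, those with the smallest adjusted p. Depth has no counterpart on arrays, where 2 arrays per group limit the precision.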

Additional observations from a re-analysis of the deposited data

Results flagged for a closer look

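Within the lists, 7 differences between TFoxp3+ and TFoxp3- cells passed a test of the difference itself (limma). Translation in activated cells was called for 4 of the 47 other pathway genes and 0 of the 7 members, against 7.48% of all genes, activation by subset for 1 of 47 and 1 of 7 in cytosolic mRNA (2.07%) and for 1 of 47 and 0 of 7 in polysome-associated mRNA (2.58%), so the counts over the lists lay near the share over all genes. In activated cells the polysome-associated minus cytosolic difference was larger in TFoxp3+ cells for Txnip by 3.18 ± 0.67 (adjusted p = 0.0369), for Pdhx, a part of the pyruvate dehydrogenase complex, by 3.15 ± 0.73 (0.0512, with a mean of 3.42 in TFoxp3+ cytosolic mRNA, below the lowest array median of 4.845), for Slc16a3 by 1.52 ± 0.40 (0.0813) and for Taldo1 by 1.24 ± 0.37 (0.112). The activation difference in cytosolic mRNA was lower in TFoxp3+ cells for Eno3 by -2.75 ± 0.53 (adjusted p = 0.0266) and for Tpi1 by -1.41 ± 0.29 (0.0379). In polysome-associated mRNA it was higher in TFoxp3+ cells for Txnip by 3.81 ± 0.67 (adjusted p = 0.016), where the fall was the smaller one. Groups of 2 arrays are too small to single out an array.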

How the results depend on the processing

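Of the 33 calls among the 7 genes, none changed direction in any alternative run for it. Called in all 22 alternatives were the activation of Slc2a1, Hk1 and Pfkp in all 4 comparisons, of Tpi1 in TFoxp3- cytosolic mRNA and of Pdk1 in TFoxp3+ cells, and the lower Pdk1 of activated TFoxp3+ cells. The number kept was 23 with only the groups compared, 26 with array weights, 29 with an intensity trend, 32 with only genes above the median mean, 33 after median centring, 24 after cyclic loess and 24 to 32 without 1 array. Counts of genes called moved as follows. Of the 20 activation calls, 16 were kept with only the groups compared, 19 with array weights, 19 with an intensity trend and 17 after cyclic loess. Between ex vivo subsets, 3 in cytosolic mRNA became 4 with only the groups compared and with weights, 1 with the trend and with loess and 0 to 3 without 1 array, and 2 in polysome-associated mRNA became 5 with only the groups compared and with weights and 0 to 3 without 1 array. Between activated subsets, 3 in cytosolic mRNA became 1 with only the groups compared, weights or loess and 1 to 3 without 1 array, and 2 in polysome-associated mRNA became 1 with only the groups compared and with weights. The polysome-associated minus cytosolic count in activated TFoxp3+ cells, 2, became 0 with only the groups compared and with weights, 1 with the trend and 0 to 2 without 1 array, and in activated TFoxp3- cells, 0, became 1 with loess and 0 to 1 without 1 array. The activation count that differed by subset, 1 in cytosolic mRNA, became 0 with only the groups compared, weights, the filter or loess and 0 to 2 without 1 array, and 0 in polysome-associated mRNA became 0 to 1. Activation by fraction in TFoxp3+ cells and translation in activated cells, both 0, became 0 to 1 without 1 array. Translation of Pfkl in activated cells was 1.05, and -0.88 by analysis of covariance, which set no limit on the slope. Causes were not tested. Loess moved the median of all genes by up to -0.178, and centring by up to -0.145. The labels share no replicate number between groups. A replicate block of consecutive numbers, the pairing that the analysis of covariance also used, was added after seeing the data for the comparisons of fractions: the deviations of paired arrays correlated at 0.0935 and 0.234 in ex vivo TFoxp3+ and TFoxp3- cells and at 0.0118 and -0.00153 in activated TFoxp3+ and TFoxp3- cells, so that the numbers were not taken to pair the arrays. With the block 0 of the 7 genes were called in any comparison of fractions, against 2 without it in activated TFoxp3+ cells, where Hk1 had an adjusted p of 0.104 and Pfkp of 0.075. Values below the array median bound what can be said of Hk1 and Slc16a3 ex vivo and of Pdk1 in activated TFoxp3+ cells, and a fit without 1 array assumes that the remaining array varies like the others.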
